A study of Mus musculus with 16 samples.

Results

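The high-mobility group (HMG) genes and the prothymosin gene are 8 symbols, Hmga1, Hmgb1, Hmgb2, Hmgb3, Hmgn1, Hmgn2, Hmgn3 and Ptma, which were taken by symbol from tables of 13344 genes for stroma and 15080 genes for tumor. All 8 symbols were found in both tables, as 8 genes in stroma and 9 in tumor, where the symbol Hmga1 stands on 2 genes, Hmga1 itself and the near-identical Hmga1b. BCR-ABL+, Arf-/- B-ALL cells of a male line, marked with a retroviral mCherry reporter, were injected into the tail vein (500000 per mouse) of C57BL/6J mice, either wild-type (WT) or lacking Il6 (IL-6 KO), of both sexes and 6 to 8 weeks old. Every group therefore came from a marrow that carried the same leukemia, and none was treated. After 8 days the cells of femur and tibia, freed of red cells, were sorted into mCherry+ cells, called tumor, and all live mCherry- cells, called stroma, with 4 RNA-sequencing libraries each of WT tumor, IL-6 KO tumor, WT stroma and IL-6 KO stroma. The labels number the libraries and do not tie each to a separate mouse, so p-values measure the spread between these libraries, which may be technical.

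Proteins of the HMG families are among the most abundant chromatin proteins other than histones. HMGA proteins bind the minor groove of AT-rich DNA through AT-hooks, HMGB proteins bend DNA through HMG boxes, and HMGN proteins bind nucleosomes and compete with linker histones. HMGB1 also acts outside the cell, where dying cells release it as an alarm signal read by TLR4 and the receptor RAGE, which is why its release is followed in work on immunogenic cell death. Prothymosin alpha, encoded by Ptma, is a small, highly acidic nuclear protein that binds histones, including linker histone H1, and its messenger RNA is abundant in dividing cells.

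Several of these genes have copies elsewhere in the genome whose sequence is nearly their own, mostly processed pseudogenes, which arise from reverse-transcribed messenger RNA. A copy was counted here where a second gene's transcript matched 150 or more nucleotides at 97% identity or better. In GENCODE (GRCm38) Hmgb1 had 45 such copies, Hmgn2 8, Hmgb2 5, Ptma and Hmgn1 2 each, and Hmgb3, Hmgn3 and Hmga1 1 each. The reads had 75 bases, so a read could be assigned to a gene or to its copy by sequence only where the 75 bases covered a difference. Of all 75-base windows of the coding sequence, the share found letter for letter in another gene's transcript was 100% for Hmga1 and Hmgn2, 99.2% for Ptma, 98.4% for Hmgb1, 95.0% for Hmgb2, 69.4% for Hmgb3 and 39.2% for Hmgn1, and 0% for Hmgn3. Over the longest transcript, untranslated parts included, it was 64.3% for Hmga1, 32.6% for Hmgb1, 24.7% for Hmgb3, 22.8% for Ptma, 20.8% for Hmgb2, 15.6% for Hmgn2 and 4.05% for Hmgn1. The stretches that follow are 75 bases of coding sequence, 1 read long, of a gene and of the copies that carried most counts, and they are shown because they hold one of the few differences between them. Capitals mark the base that differs, and positions are counted from 1 at the 5′ end of the stretch.

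Hmgb2 and Gm4739 differed at 2 of 633 coding bases. The Hmgb2 stretch lies in a coding exon at chr8:57514012-57514086 (plus strand) and that of Gm4739 at chr10:26108306-26108380 (plus strand), and the difference is C38T.
Hmgb2: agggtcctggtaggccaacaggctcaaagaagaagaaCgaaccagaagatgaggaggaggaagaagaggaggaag
Gm4739: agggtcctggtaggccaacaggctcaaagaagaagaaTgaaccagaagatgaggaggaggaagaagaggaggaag

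Hmgb2 and Gm13237, a second processed pseudogene, differed at 6 coding bases and 1 gap. This Hmgb2 stretch spans an exon junction between chr8:57512678 and 57513065 (plus strand), that of Gm13237 lies at chr4:146564932-146565006 (minus strand), and the difference is again a C38T, at another site.
Hmgb2: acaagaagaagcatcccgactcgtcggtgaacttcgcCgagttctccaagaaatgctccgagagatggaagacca
Gm13237: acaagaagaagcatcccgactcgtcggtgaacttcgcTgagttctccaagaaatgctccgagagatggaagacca

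Hmgb1 differed from Gm15387, and from Gm21596, at 1 of 648 coding bases, the same one (A21G). The first 75 coding bases of Hmgb1 lie in an exon at chr5:149050663-149050737 (minus strand), those of Gm15387 at chr15:74094259-74094333 (minus strand) and those of Gm21596 at chr2:113920331-113920405 (minus strand).
Hmgb1: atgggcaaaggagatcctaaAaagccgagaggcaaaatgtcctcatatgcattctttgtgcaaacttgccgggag
Gm15387: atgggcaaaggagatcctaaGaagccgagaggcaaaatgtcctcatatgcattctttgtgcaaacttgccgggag
Gm21596: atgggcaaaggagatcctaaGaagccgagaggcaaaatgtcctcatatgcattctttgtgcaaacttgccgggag

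Ptma differed from the processed pseudogene Gm9800 at 1 of the 334 coding bases that aligned, with 1 gap. The Ptma stretch spans an exon junction between chr1:86529200 and 86529485 (plus strand), that of Gm9800 lies at chr14:8800187-8800261 (minus strand), and the difference is G38A.
Ptma: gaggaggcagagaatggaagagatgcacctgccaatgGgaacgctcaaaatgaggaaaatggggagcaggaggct
Gm9800: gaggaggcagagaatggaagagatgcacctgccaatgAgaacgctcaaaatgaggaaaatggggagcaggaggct

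Hmga1 (chr17:27556497-27563674, plus strand) and Hmga1b (chr11:120762794-120764419, plus strand) had no difference in their 324 coding bases and 3 over 1538 aligned bases, so no stretch of theirs is shown.

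The values are normalized counts, estimated by the authors with salmon and scaled with DESeq2 within each table. They are not whole reads, and the depth of each library is unknown. Their sum over a library ranged from 8805689 to 17470735 in WT stroma and from 33973016 to 44191950 in IL-6 KO stroma. In tumor it ranged from 38817792 to 44552085 in WT and from 47267047 to 55592959 in IL-6 KO libraries. In both compartments every IL-6 KO library thus had a larger sum than any WT library, after scaling. Which genes hold this difference was not tested. Il6 was not analysed here, so the labels were not checked by the deleted gene. The cell type was checked by 10 B lineage markers, whose normalized counts summed to between 143892 and 167172 in tumor libraries and between 542 and 1585 in stroma libraries. Stroma libraries were rich in erythroid markers (sums from 88874 to 424317 over 12 genes), and of 10 mesenchymal and endothelial markers Lepr, Cxcl12, Cdh5 and Adipoq are not in the stroma table, so stroma is used here for all mCherry- marrow cells and not for a mesenchymal population. Genotypes were compared within a table with limma on log2(normalized count + 1) over genes with a mean over 10 (12202 in stroma, 14493 in tumor, all HMG genes and Ptma among them), two-sided, with Benjamini-Hochberg adjustment. A fold change is given on that log2 scale, IL-6 KO relative to WT, with its standard error (SE). In bulk libraries, fewer cells of a type and less RNA per cell cannot be told apart.

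In tumor, Ptma, Hmga1, Hmgn1 and Hmgb2 had higher normalized counts in every IL-6 KO library than in any WT library, and Hmgb1 and Hmgn3 had lower ones. Hmgb3 and Hmgn2 overlapped, and Hmga1b fell to near 0 in 3 of the 4 IL-6 KO libraries. The genes were selected by measured values of this tumor comparison, in which Ptma and Hmga1 already stood among the genes past the threshold, so their tumor differences are a description and no test. As part of that description, at an adjusted p under 0.05 in limma, 4 of the 9 genes were called higher, beside 10.6% of all 14493 genes tested, and 2 (Hmgb1 and Hmga1b) lower, beside 9.16%. With a trend of each library's values with GC content and length taken out, the calls over all genes went from 1542 higher and 1328 lower to 1438 higher and 648 lower. The groups did not overlap, with IL-6 KO higher, in 4 of the 9, beside 13.6% of all genes, and with IL-6 KO lower in 2, beside 12%. Nothing is read from these shares because of how the genes were picked. The median log2 fold change was -0.03 over the 9 genes and -0.01 over all genes tested.

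**Figure D1:**
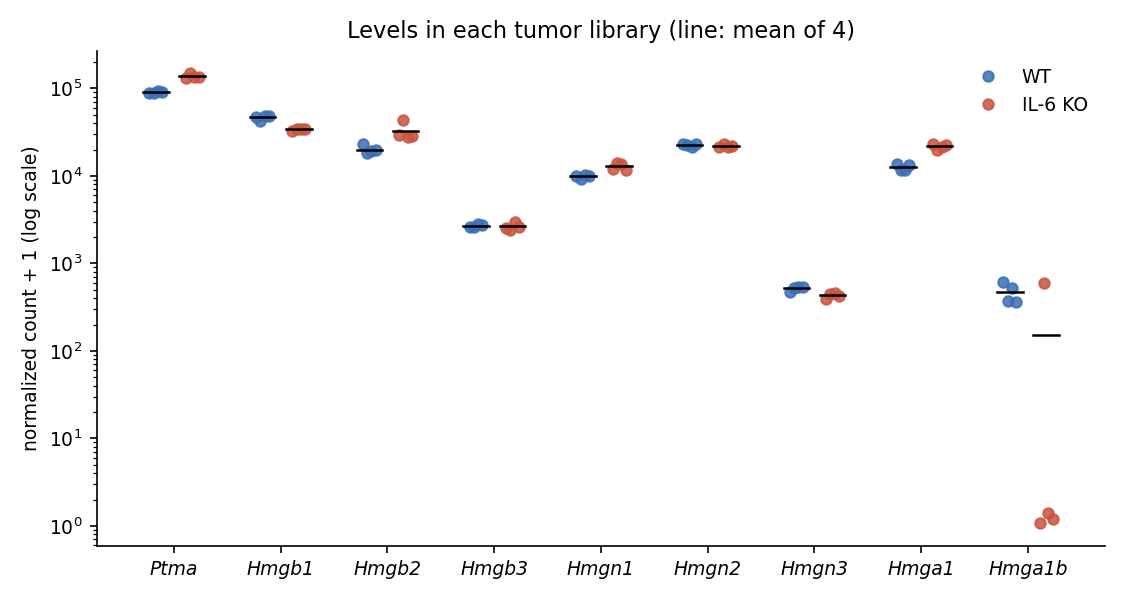
Normalized count plus 1 (log axis) of each HMG gene and Ptma in the 4 WT (blue) and 4 IL-6 KO (red) tumor libraries, with a line at each mean. Ptma stood between 89271 and 93599 in WT and between 132858 and 148856 in IL-6 KO tumor, and Hmga1b lay near 0 in 3 IL-6 KO libraries and at 603 in the other one.

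Ptma (chr1:86526726-86530712) was the most abundant of these genes in tumor. Its normalized count was 89271, 89326, 93599 and 91102 in WT libraries 1 to 4 and 132858, 148856, 133599 and 136180 in IL-6 KO libraries 1 to 4. The WT libraries lay within a narrow band, and the lowest IL-6 KO library stood well above it. The log2 fold change was 0.60 (SE 0.06, n = 4 per group), a 1.52-fold higher level. Its copies Gm9800 and Gm4617 were small in tumor and held at most 0.153% of the summed counts in any library, and with them the log2 fold change was again 0.60.

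Hmga1, the AT-hook protein of this set, had a normalized count of 13752, 11686, 11715 and 13413 in WT tumor and 23354, 19926, 21319 and 22597 in IL-6 KO tumor. The groups were clearly apart, with means of 12642 ± 1095 and 21799 ± 1505 (SD, n = 4) and a log2 fold change of 0.79 (SE 0.08). Hmga1b, which encodes the same coding sequence from chromosome 11, had 619, 373, 518 and 364 in WT tumor and 0.07, 603, 0.40 and 0.18 in IL-6 KO tumor. IL-6 KO library 2 was thus at the WT level and the other three were near 0, so a mean over the IL-6 KO libraries describes none of them. Since Hmga1b held at most 4.31% of the summed counts, adding it to Hmga1 left the log2 fold change at 0.75 (SE 0.08).

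Hmgb1, the DNA-bending protein with the alarm function, was the one abundant HMG gene that was lower, without overlap, in IL-6 KO tumor. It had 47382, 42429, 48224 and 48615 normalized counts in WT tumor and 32906, 34763, 34491 and 34437 in IL-6 KO tumor. The highest IL-6 KO library lay below the lowest WT library, and the log2 fold change was -0.45 (SE 0.06), 0.732 of the WT level. Of its 26 copies in the tumor table, Gm15387 went the other way, at 4594, 9871, 5101 and 5354 in WT and 10069, 13819, 10549 and 11051 in IL-6 KO tumor, again without overlap. Gm21596 stood at 6133 in WT library 2 and 2546 in IL-6 KO library 2, and at 398 or lower in the other six. Copies held between 12.5% and 29.6% of the summed counts in WT and between 25.9% and 34.2% in IL-6 KO tumor. With all copies added, Hmgb1 had 54173, 60265, 55280 and 55840 in WT and 44385, 52821, 46617 and 46923 in IL-6 KO tumor, so the groups remained apart and the log2 fold change shrank to -0.24 (SE 0.07). After a trend of each library's values with GC content and length was taken out, the log2 fold change of Hmgb1 alone was -0.19 (SE 0.08).

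Hmgb2, the HMGB protein typical of dividing cells, had 22959, 18058, 19032 and 19730 normalized counts in WT tumor and 29351, 43476, 27789 and 28703 in IL-6 KO tumor. The IL-6 KO libraries were higher without overlap, library 2 far above the rest, and the log2 fold change was 0.68 (SE 0.14). Its copy Gm13237 had 5219, 6062, 5406 and 5351 in WT but 2.79, 4064, 9.14 and 22.6 in IL-6 KO tumor, and Gm4739 had 3665, 3757, 3441 and 3612 in WT but 9.85, 3719, 20.3 and 11.8 in IL-6 KO tumor. Both copies were near 0 in the same 3 libraries in which Hmga1b was, and near the WT level in IL-6 KO library 2. Copies held between 27.9% and 35.3% of the summed counts in WT tumor, and 0.116%, 15.2%, 0.179% and 0.18% in IL-6 KO libraries 1 to 4. With the copies added, Hmgb2 had 31865, 27904, 27897 and 28717 in WT and 29386, 51276, 27839 and 28755 in IL-6 KO tumor. IL-6 KO libraries 1, 3 and 4 then lay within or just below the WT range, library 2 alone stood above it, and the log2 fold change was 0.19 (SE 0.17). Without IL-6 KO library 2, Hmgb2 alone had a log2 fold change of 0.53. Whether IL-6 KO libraries 1, 3 and 4 were quantified against the same set of transcripts as the other tumor libraries is not given in the sources used here and was not tested. If they were not, the tumor values of Hmgb2, Hmga1 and Hmgb1 without their copies, and the split between each gene and its copies, would not be comparable between these libraries and the others.

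**Figure D2:**
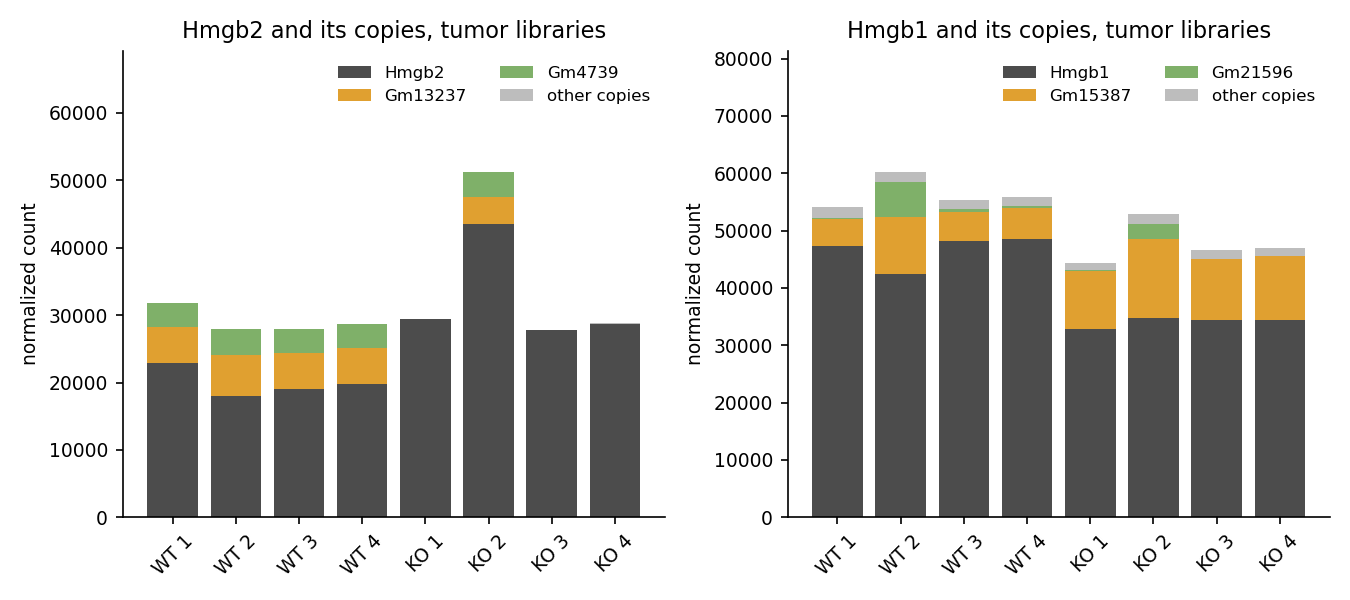
Stacked normalized counts of Hmgb2 (left) and Hmgb1 (right) with their 2 largest copies and all other copies, per tumor library (WT 1 to 4, IL-6 KO 1 to 4). The Hmgb2 copies are near 0 in IL-6 KO 1, 3 and 4, where the whole bar lies within or just below the WT range, and IL-6 KO 2 reaches 51276. The Hmgb1 bars are lower in IL-6 KO than in WT with the copies included.

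Hmgb3, the X-linked HMGB gene known from blood progenitors, did not separate the genotypes in tumor, at 2701 ± 90.9 in WT and 2645 ± 248 in IL-6 KO (SD, n = 4; log2 fold change -0.03, SE 0.08). None of its copies is in the tumor table.

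The nucleosome-binding HMGN genes went in different directions in tumor. Hmgn1 had 10065, 9110, 10308 and 9891 normalized counts in WT and 12096, 13947, 13667 and 11676 in IL-6 KO tumor, higher in each IL-6 KO library. Its log2 fold change was 0.38 (SE 0.08), and 0.28 (SE 0.07) with the copy Gm7862 added, again without overlap. Hmgn2 stood at 22638 ± 746 in WT and 22001 ± 964 in IL-6 KO tumor (SD, n = 4), with a log2 fold change of -0.04 (SE 0.06) and overlapping groups. Hmgn3, the least abundant, had 472, 529, 540 and 537 in WT and 393, 443, 459 and 423 in IL-6 KO tumor. Its groups did not overlap, and the log2 fold change was -0.27 (SE 0.10), and -0.31 (SE 0.09) with library weights. With the GC content and length trend removed it was -0.02.

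Ratios within a library do not depend on how the libraries were scaled to each other. Per kilobase of longest transcript, Ptma stood at 4.55 ± 0.25 times Hmgb1 in WT tumor and at 9.42 ± 0.412 times Hmgb1 in IL-6 KO tumor (SD, n = 4). With copies added to both, the ratio was 3.77 ± 0.215 in WT and 6.76 ± 0.174 in IL-6 KO tumor. Hmgb2 relative to Hmgb1 was 0.462 ± 0.0432 in WT and 1.02 ± 0.223 in IL-6 KO tumor from the genes alone, and 0.559 ± 0.0563 and 0.767 ± 0.19 with copies. The ratios of Hmgn1 to Hmgn2 were 0.432 ± 0.0303 in WT and 0.58 ± 0.0484 in IL-6 KO tumor. With copies they were 0.492 ± 0.0226 and 0.617 ± 0.0434. Those of Hmga1 to Hmgb1 were 0.385 ± 0.0284 and 0.907 ± 0.0821, and 0.331 ± 0.0405 and 0.657 ± 0.0815 with copies. Each of these ratios from the genes alone was higher in all 4 IL-6 KO libraries than in all 4 WT libraries, as the fold changes of the single genes already imply.

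**Figure D3:**
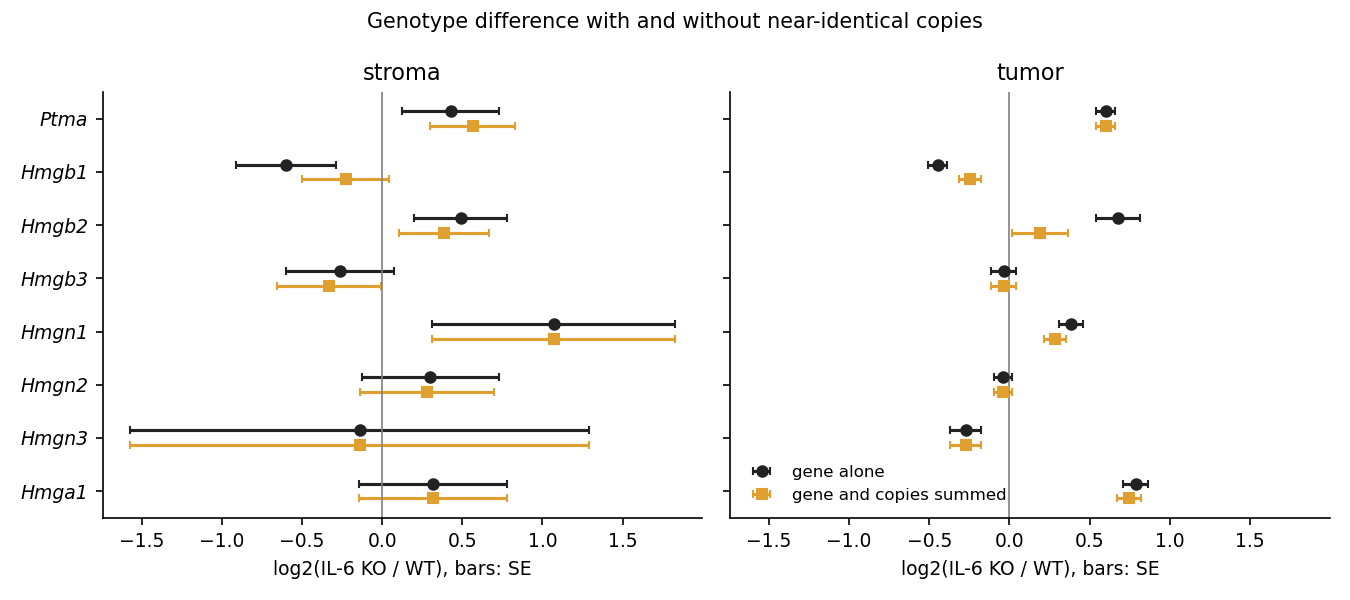
Log2 fold change (IL-6 KO over WT, bars of 1 SE, n = 4 per group) of each gene alone (black circles) and with its copies added (orange squares), in stroma (left) and tumor (right) on the same axis. In tumor Hmgb2 moves from 0.68 to 0.19 and Hmgb1 from -0.45 to -0.24, while Ptma stays at 0.60.

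Markers of some other marrow cells moved with genotype in the same tumor libraries. Of 10 mature neutrophil markers, 8 were called higher and none lower in IL-6 KO tumor (limma, adjusted p under 0.05), none was at 0 in any library, and their summed normalized count was 4658 to 5229 in WT and 16927, 17611, 7153 and 15491 in IL-6 KO libraries 1 to 4. All 6 neutrophil precursor markers were called higher, with sums of 319 to 461 in WT and 874 to 1893 in IL-6 KO tumor. Of 10 monocyte and macrophage markers, 3 were called higher and 4 had a log2 fold change below 0. Their sums were 1969 to 2361 in WT and 2523 to 3445 in IL-6 KO tumor. The largest part was Mrc1, whose groups overlapped (1407 ± 72.3 and 1479 ± 199, SD, n = 4). Of 10 B lineage markers 2 were called higher and 1 lower, and 8 had a log2 fold change above 0. Their sums did not overlap, at 143892 to 148932 in WT and 156747 to 167172 in IL-6 KO tumor. Of the markers tested, none of 10 erythroid, 4 T and NK or 2 megakaryocyte genes was called. Among 7 mesenchymal and endothelial markers, 1 was called lower and none higher. The sums of these sets overlapped between the genotypes. In IL-6 KO library 3 the mature neutrophil sum was the lowest of its group, but still above every WT library. There Ptma stood at 133599, Hmga1 at 21319, Hmgn1 at 13667 and Hmgb1 at 34491, within the range of the other IL-6 KO libraries. Hmgb2 was at 27789, the lowest of its group, and Hmgn3 at 459, the highest. The part of other marrow cells in the values of the HMG genes and Ptma was not tested.

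In stroma no HMG gene or Ptma passed the threshold, and the SE of the log2 fold changes was 0.29 to 1.43, against 0.06 to 0.14 for the same genes in tumor. Of the 8 genes none was called by limma at an adjusted p under 0.05, beside 0.0082% of the 12202 genes tested (1 gene), and none had an unadjusted p under 0.05, beside 1117 of all genes. The genotypes overlapped in all 8, while over all genes 2.54% did not overlap with IL-6 KO higher and 3.25% with IL-6 KO lower. The median log2 fold change over the 8 was 0.31, with 5 above 0 and 3 below it, and -0.01 over all genes tested.

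**Figure D4:**
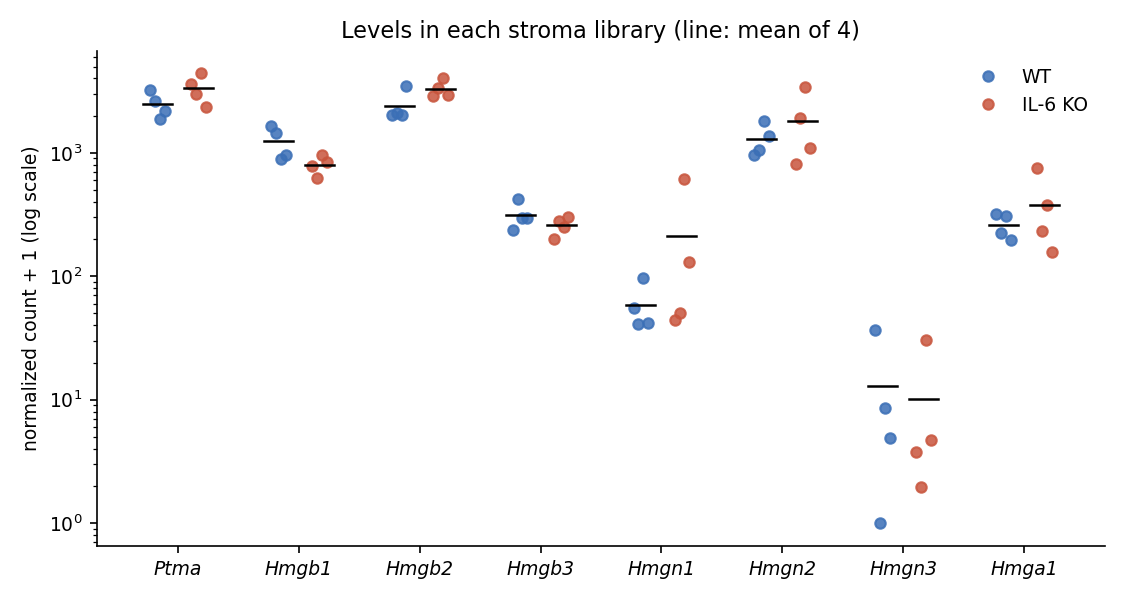
Normalized count plus 1 (log axis) of each HMG gene and Ptma in the 4 WT (blue) and 4 IL-6 KO (red) stroma libraries, with a line at each mean. The groups overlap for every gene, and the highest Hmgn1 value, 615, is IL-6 KO library 3.

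Ptma had 3205, 2618, 1874 and 2165 normalized counts in WT stroma, against 3622, 2971, 4408 and 2358 in IL-6 KO stroma. The log2 fold change was 0.43 (SE 0.30, limma adjusted p = 0.686). Gm9800 held a larger share here than in tumor, 13.3% to 29.9% of the sum in WT and 13.5% to 39.1% in IL-6 KO stroma. With it added, the counts were 3697, 3418, 2652 and 3091 in WT and 5310, 4723, 5095 and 3874 in IL-6 KO stroma. Each IL-6 KO library then lay above each WT library, with a log2 fold change of 0.56 (SE 0.27) that did not pass the threshold (limma adjusted p = 0.553).

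Hmgb1 had 1655, 1444, 897 and 957 in WT stroma, against 777, 627, 954 and 836 in IL-6 KO stroma, with the higher values in WT libraries 1 and 2 and the other WT libraries among or just above the IL-6 KO libraries. The log2 fold change was -0.60 (SE 0.31, limma adjusted p = 0.579). Copies held between 44.5% and 68.0% of the Hmgb1 sum in stroma, most of it on Gm21596, at 789 to 1076 in WT and 965 to 1360 in IL-6 KO stroma, whereas Gm15387 was at 0 in all 4 IL-6 KO libraries and reached 156 in WT library 4. With the copies, the log2 fold change was -0.23 (SE 0.27, limma adjusted p = 0.825).

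Hmgb2 had 2039, 2082, 2023 and 3458 in WT stroma, against 2894, 3364, 4065 and 2915 in IL-6 KO stroma. All WT libraries but number 4 lay below the IL-6 KO libraries, and the log2 fold change was 0.49 (SE 0.29, limma adjusted p = 0.618). The copies Gm13237 and Gm4739, near 0 in 3 IL-6 KO tumor libraries, were present in all IL-6 KO stroma libraries, at 329 to 778 and 298 to 788. Hmgb3 stood at 312 ± 77.8 in WT and 258 ± 44.4 in IL-6 KO stroma (SD, n = 4; log2 fold change -0.26, SE 0.34). Hmga1 ranged from 197 to 317 in WT and from 157 to 746 in IL-6 KO stroma, with the highest value in library 1 (log2 fold change 0.32, SE 0.46).

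The HMGN genes were highest in IL-6 KO stroma library 3, apart from Hmgn3. Hmgn1 had 53.8, 40.1, 95.3 and 41.2 in WT stroma, against 43.1, 49.0, 615 and 130 in IL-6 KO stroma (log2 fold change 1.07, SE 0.76, limma adjusted p = 0.686), and 0.26 without library 3. Hmgn2 had 951, 1051, 1825 and 1363 in WT and 810, 1895, 3419 and 1088 in IL-6 KO stroma (0.30, SE 0.43), and the sign turned without library 3. Hmgn3 was close to the limit of what was tested, with a mean of 10.5, at 36.0, 0, 7.60 and 3.91 in WT and 2.74, 0.98, 29.2 and 3.76 in IL-6 KO stroma, and the sign of its log2 fold change of -0.14 (SE 1.43) turned under 3 alternatives that kept all libraries. Library 3 also had the largest erythroid marker sum, 424317, the largest megakaryocyte sum, 855, and the smallest mature neutrophil sum of its group, 7905 beside 26867 to 32992 in the others, and the part of these cells in its HMGN values was not tested.

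Since each table was normalized on its own, stroma and tumor levels of the HMG genes and Ptma were set side by side only as ranks. The B lineage sums, given above as a check of cell type, were compared without ranks. A rank is that of a gene's normalized count per kilobase among 10669 genes tested in both tables. Ptma ranked at a percentile of 98.95 or above in every stroma library and between 99.75 and 99.88 in tumor libraries. Hmgb2 was as high in stroma, with a median percentile of 98.0 in WT and 98.7 in IL-6 KO, as in tumor, with 97.4 and 98.1. Hmgb1 ranked at 95.6 (WT) and 92.8 (IL-6 KO) for stroma and at 98.7 and 98.2 in tumor, and Hmgn2 at 96.9 and 97.5 in stroma and 98.0 and 97.9 in tumor. Hmga1 ranked at 84.3 and 84.7 in stroma and at 97.1 and 98.1 in tumor, while Hmgb3 was alike, at 88.2 and 85.5 in stroma and 87.9 and 86.3 in tumor. The widest gap was that of Hmgn1, at a median percentile of 40.0 (WT) and 53.4 (IL-6 KO) for stroma against 96.0 and 96.7 for tumor. Hmgn3 had the lowest rank in all 4 groups, 9.17 and 7.68 in stroma and 55.7 and 49.4 in tumor. In WT tumor the order per kilobase was Ptma, Hmgb1, Hmgn2, Hmgb2, Hmga1, Hmgn1, Hmgb3 and Hmgn3, and in WT stroma it was Ptma, Hmgb2, Hmgn2, Hmgb1, Hmgb3, Hmga1, Hmgn1 and Hmgn3. In IL-6 KO tumor it was Ptma, Hmgb2, Hmgb1, Hmga1, Hmgn2, Hmgn1, Hmgb3 and Hmgn3, and in IL-6 KO stroma Ptma, Hmgb2, Hmgn2, Hmgb1, Hmga1, Hmgb3, Hmgn1 and Hmgn3. Some neighbours in these orders had ranges over the libraries of a group that overlapped. In tumor these were Hmgb2 and Hmga1 in WT, whose ranges just met, and Hmgb2, Hmgb1, Hmga1 and Hmgn2, each with the next, in IL-6 KO. In WT stroma they were Hmgb2, Hmgn2 and Hmgb1, then Hmgb3 and Hmga1, and Hmgn1 and Hmgn3. In IL-6 KO stroma they were Hmgb2 and Hmgn2, and all neighbours from Hmgb1 downward. Such ranges leave out that both genes were measured in the same libraries. Compared within each library, Hmgb2 stood above Hmga1 throughout WT tumor, and Hmgn1 above Hmgn3 throughout IL-6 KO stroma. These ranks use the genes without their copies.

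**Figure D5:**
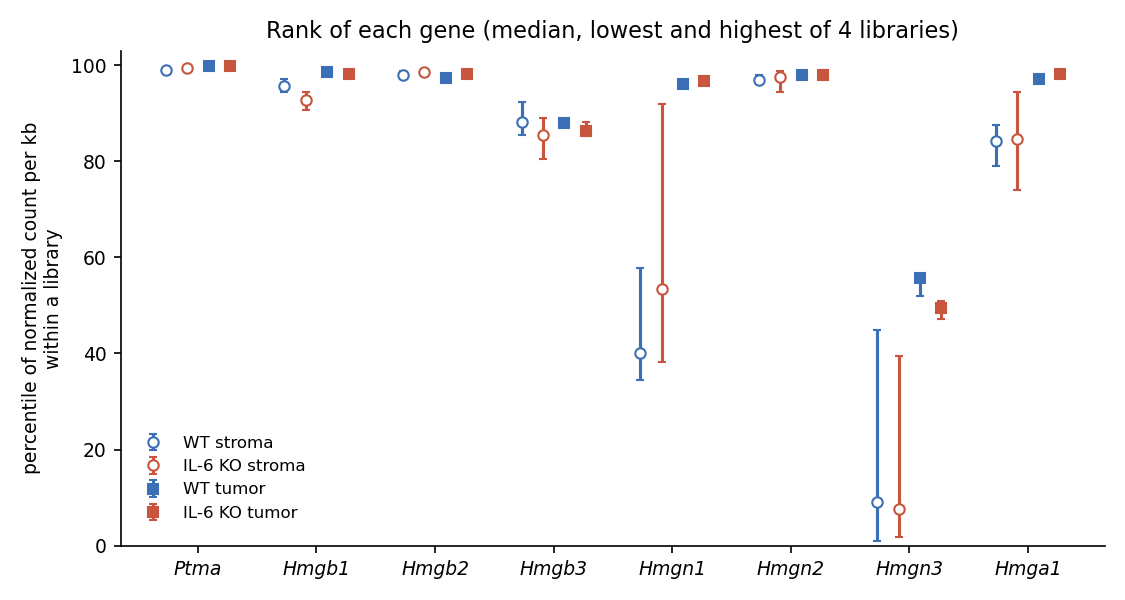
Percentile of the normalized count per kilobase within a library, over 10669 genes, as the median with the lowest and highest of 4 libraries for WT (blue) and IL-6 KO (red) stroma (open circles) and tumor (filled squares). Hmgn1 and Hmgn3 rank far lower in stroma than in tumor, and Ptma is at the top of both.

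Other genes with related roles gave the surroundings of these values. The lists are from general knowledge, and in stroma no gene of any list was called (limma, adjusted p under 0.05). In tumor the counts of calls stand beside 10.6% called higher and 9.16% called lower over all genes tested, and nothing is called particular to a list from them. Of 22 other genes with HMG domains or of HMG families tested in tumor, 2 were higher and 4 lower, with a median log2 fold change of -0.12. Tfam, the HMG-box protein of mitochondrial DNA, was at 2115 ± 122 in WT and 1624 ± 112 in IL-6 KO tumor (SD, n = 4; limma adjusted p = 0.0106). Hmgxb4 was lower too, at 1498 ± 136 and 1037 ± 115 (limma adjusted p = 0.00828). Of 23 histone chaperones and acidic nuclear proteins, 7 were higher and 3 lower in IL-6 KO tumor, with a median of 0.12. Ssrp1, an HMG-box subunit of the FACT chaperone, rose from 13267 ± 228 to 17985 ± 867 (limma adjusted p = 0.00176). The nucleolar chaperones Ncl and Npm1 rose by log2 fold changes of 0.42 (SE 0.06, limma adjusted p = 0.00368) and 0.35 (SE 0.06, limma adjusted p = 0.00524), and Chaf1a, of the chromatin assembly factor, by 0.75 (SE 0.12, limma adjusted p = 0.00461).

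Of 6 linker histones, which HMGN proteins and prothymosin alpha are known to meet on chromatin, H1f3 was called higher in tumor, from 44184 ± 3293 to 69491 ± 14436 (limma adjusted p = 0.0168), with overlapping groups. Of 13 genes for HMGB1 receptors and release, 1 was called higher in tumor and 2 lower. Myd88, the adaptor of Toll-like receptors, was higher, with overlapping groups (log2 fold change 0.40, SE 0.12, limma adjusted p = 0.0462). Cd24a was lower (-0.39, SE 0.09, limma adjusted p = 0.0148). Ly96, the partner of TLR4, was lower too, at 60.1 ± 13.8 in WT and 24.3 ± 5.4 in IL-6 KO tumor (limma adjusted p = 0.0119). Of 5 known partners of prothymosin alpha, the acetyltransferase genes Ep300 and Crebbp were lower in IL-6 KO tumor, Ep300 from 7152 ± 635 to 4190 ± 1370 (limma adjusted p = 0.0193) and Crebbp by a log2 fold change of -0.30 (SE 0.08, limma adjusted p = 0.0268). Of 28 proliferation genes, 10 were higher and 1 lower in IL-6 KO tumor, with a median of 0.18. The cyclin gene Ccna2 was the lower one, from 11558 ± 437 to 8096 ± 335 (limma adjusted p = 0.00107), and the replication helicase gene Mcm5 was among the higher ones, from 12390 ± 1357 to 16591 ± 660 (limma adjusted p = 0.00778). In stroma 26 of the 28 had a log2 fold change below 0, with a median of -0.62 and 11 at an unadjusted p under 0.05. Over all genes tested in stroma, 49.4% had a log2 fold change above 0 and 9.15% an unadjusted p under 0.05.

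Likeness of pattern was measured as the root mean square difference of centred log2 values over the 8 libraries of a table, copies left out. In tumor the genes nearest to Ptma were Nucb1, Hras and Ebna1bp2, with differences of 0.04 to 0.06, beside a median of 0.35 over 11236 genes. Nearest to Hmgb1 were Synj2, Tiprl and Snrpd1 (0.05 to 0.06, beside a median of 0.32), nearest to Hmgn1 were Lig1, Cant1 and Slc35c1 (0.05 to 0.06, beside 0.28), and nearest to Hmga1 were Exosc7, H4c4 and Mea1 (0.06 to 0.08, beside 0.44). Hmgb2 was most like Timm13, Mgat4b and Ssbp4 (0.07 to 0.09, beside 0.43). Hmga1b was most like the pseudogenes Gm15429, Trmt112-ps2 and Gm4739, at 0.24 to 0.44, beside a median of 4.21. In stroma the nearest genes were farther off, at 0.14 to 0.17 for Ptma (Usp39, Chmp2a and Rnf4) and 0.30 to 0.50 for Hmgn1 (Trmu, Arap2 and Kars).

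Promoters of 300 bases (250 before and 50 after the start) were given by RefSeq on GRCm38.p6 for 7 of the 8 symbols, all but Hmgn3, with 2 starts each for Hmga1 and Hmgb1. The GC box GGGCGG, on either strand, was found for 7 of the 7, beside 35.7% of 32851 promoters of that length, and CCAAT, on either strand, for 5, beside 37.4%. The E-box CACGTG was found for 2 (Hmgb1 and Hmgn2), beside 7.15%, and the E2F motifs TTTCCCGC and TTTGGCGC, on either strand, for none, beside 1.56%. A gene with 2 starts counted where either start held the motif, whereas the shares over all promoters are of single promoters. Hmgb1 held CCAAT at a different start than its E-box and GC boxes.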

How the data were processed

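The 16 libraries of RNA from mCherry+ and mCherry- marrow cells, all used, were grouped by the genotype, compartment and number in their labels. The authors quantified transcripts with salmon 1.3.0 on mm10 and normalized with DESeq2 1.28.1, and the deposited values are normalized counts, a scaled signal in which reads are no longer whole. The authors' own test results, also deposited (means, log2 fold changes, Wald statistics and p-values), were not used. Normalized counts were tested per compartment with limma 3.58.1 (R 4.3.3) on log2(count + 1), genes with a mean over 10, genotype as the only term, with moderated variances that follow the mean. The procedure was tested on simulated data. Positions, types and transcripts came from GENCODE vM21 (GRCm38). Copies were found with BLAST 2.17.0. Figures and tables used Python 3.11.15, pandas 2.3.3, Biopython 1.88 and matplotlib 3.10.9.

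The genes and lists were chosen with earlier results of these data known. Named genes were the 8 symbols and their copies, up to 4 genes of each list and compartment with the smallest p, and up to 3 genes most like each member with a mean of at least 50. Alternatives were pseudocounts of 0.5 and 5, no filter or a mean over 50, quantile normalization, median centring, library weights, a replicate block, each library left out, a GC content and length trend removed (loess, span 0.3), and copies added to each gene. Protein sequences were not used here.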

Additional observations from a re-analysis of the deposited data

Results flagged for a closer look

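In groups of 4 libraries, the highest or lowest value was set against the rest by Dixon's criterion at the 95% level. Chance passes it in about 1 of 20 groups, and 56 groups were tried. A gene alone and the same gene with its copies counted as separate groups, so the groups were not independent. In tumor, IL-6 KO library 2 stood above its group for Hmga1b (603 normalized counts), Hmgb2 (43476) and Hmgb2 with its copies (51276), and WT library 1 stood below its group for Hmgn3 (472). In stroma, IL-6 KO library 3 stood above its group for Hmgn1 (615) and Hmgn3 (29.2). WT stroma library 4 stood above its group for Hmgb2 (3458) and for Hmgb2 with its copies (4467), and IL-6 KO stroma library 1 stood below its group for Hmgb3 with its copies (199).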

How the results depend on the processing

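Over all alternatives, the number of HMG genes and Ptma called in stroma remained 0, and in tumor it went from 6 of 9 to between 4 (copies added, 8 genes) and 7 (library weights). Of all genes tested in stroma, 1 was called, 4 with library weights, 2 with the GC content and length trend removed, and between 1 and 3 with a library left out. In tumor 2870 genes were called, between 1569 (without IL-6 KO library 4) and 3327 (without IL-6 KO library 2) with a library left out, 4153 (2218 higher, 1935 lower) with library weights and 2086 (1438 higher, 648 lower) with the GC content and length trend removed. The calls of HMG genes and Ptma in tumor are a description, since the genes were picked with that comparison known. Among them, Hmgb1 went from -0.45 to -0.19 with the trend removed and Hmgb2 from 0.68 to 0.19 with its copies added. With the trend removed, Hmgb2 instead rose to 0.99, Ptma went from 0.60 to 0.83 and Hmgn1 from 0.38 to 0.47. Hmga1 fell from 0.79 to 0.55 with the trend removed, and Ptma fell to 0.48 with quantile normalization. The call of Hmga1b as lower was lost in 7 of the 8 fits with a library left out. It was kept without IL-6 KO library 2. The direction turned for Hmgn3 in stroma with quantile normalization (0.22), library weights (0.058) and the trend removed (0.036), and for Hmgb3 in tumor with the trend removed (0.058). With a library left out, log2 fold changes ran from -1.02 to 0.37 for Hmgn3, from -0.093 to 0.65 for Hmga1 and from -0.082 to 0.61 for Hmgn2 in stroma, and from -0.096 to 0.004 for Hmgb3 in tumor. The cause of these changes was not tested.

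The deviations of same-numbered WT and IL-6 KO libraries correlated at 0.0959, 0.0476, -0.0293 and 0.126 in stroma and between -0.0186 and -0.000283 in tumor. With 4 libraries per group, these values cannot decide whether the replicate numbers pair the libraries. Whether tumor and stroma libraries of the same number came from the same mouse was not tested. With the replicate block 1 gene was called in stroma and 2230 in tumor, and 6 of the 9 HMG genes and Ptma in tumor. The depth of each library is unknown, so the limits it sets on Hmgn3 and other low values cannot be given.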

Other observations

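The 3 IL-6 KO tumor libraries in which Hmga1b, Gm13237 and Gm4739 were near 0 shared this with other genes. By a rule set after those values were seen, 12 of 9766 genes with over 100 normalized counts in the 4 WT tumor libraries and in IL-6 KO library 2 were below 10% of the lowest of these 5 levels in each of IL-6 KO libraries 1, 3 and 4. The 12 count Hmga1b, Gm13237 and Gm4739 themselves. Of the 12, 7 are annotated as pseudogenes, Gm13237 and Gm4739 among them, beside 93 of the 9766. Since the rule was set on these genes, nothing is read from that share. The 12 also include Zbed6 and Gm49342, both listed at 0 in the 3 libraries. Zbed6 was at 666 in IL-6 KO library 2 and at 989 to 1125 in WT libraries. Gm49342 was at 2758 in IL-6 KO library 2 and at 9542 to 10996 in WT libraries. Most of the 12 were listed at 0 in each of the 3 libraries, and what sets them apart was not tested. Whether these 3 libraries were quantified against the same set of transcripts as the others is not given in the sources used here.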
